A study of Drosophila melanogaster with 2 samples.

Results

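The regions described here are the 600 peaks that lay on chromosome X in a chromatin immunoprecipitation sequencing (ChIP-seq) experiment on Drosophila melanogaster embryos. They were the peaks of the conservative thresholded list whose chromosome was X, 600 of 3012 in all. They are set against the 2406 peaks of the autosomal arms 2L, 2R, 3L, 3R and 4 in the same list. The remaining 6 peaks lay on unplaced scaffolds that bear the name of X and are not members. The embryos were whole organisms aged 0 to 24 h of the strain CG10321-GFP, which expresses a fusion of the CG10321 protein with enhanced green fluorescent protein (eGFP), and chromatin was precipitated with anti-GFP antibody. There were 2 biological replicates of this 1 group, sonicated to a size range of 200 to 800 bp. The labels give neither the promoter that drives the fusion nor the sex of the embryos, so male and female chromatin could not be separated. No control library was analysed here, the read depth is unknown, and every value below describes peaks that the authors called, in dm6 coordinates.

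In Drosophila, males carry a single X and females a pair. In males the MSL complex, which is assembled around the noncoding RNAs roX1 and roX2, covers the X and raises its transcription. It is known to enter the X at GA-rich recognition elements, many of them in introns and 3' untranslated regions (UTRs), where the zinc finger protein CLAMP binds GA repeats. GAGA factor, encoded by Trl, binds similar repeats at promoters on every chromosome. These facts are background, and none of these proteins was measured here.

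Sequences of 101 bp centred on the summit, the point of highest signal within a peak, are shown for the strongest X peaks to let the GA-rich sequence be seen. They were read from the plus strand of the RefSeq copy of dm6, and capitals mark every GAGAG or its reverse complement CTCTC. Of the 25 strongest X peaks shared by both replicates, 8 held the GAGA element GAGAGAG on either strand. The windows shown were chosen by that element, so they do not give its frequency. The first 6 belong to those 8, with windows that overlap a UTR left out.
oc promoter, chrX:8650917-8651017: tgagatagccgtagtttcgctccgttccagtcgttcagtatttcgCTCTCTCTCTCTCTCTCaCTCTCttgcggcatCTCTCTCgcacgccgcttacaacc
btd promoter, chrX:9693960-9694060: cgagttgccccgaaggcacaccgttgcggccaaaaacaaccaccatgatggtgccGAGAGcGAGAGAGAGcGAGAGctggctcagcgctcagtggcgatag
Rilpl intergenic, chrX:1399777-1399877: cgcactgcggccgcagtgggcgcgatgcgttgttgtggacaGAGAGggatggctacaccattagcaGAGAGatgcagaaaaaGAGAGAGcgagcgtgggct
B-H1 promoter, chrX:17397244-17397344: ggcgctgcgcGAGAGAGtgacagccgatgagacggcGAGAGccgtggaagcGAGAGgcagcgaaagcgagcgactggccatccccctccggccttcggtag
bi promoter, chrX:4426948-4427048: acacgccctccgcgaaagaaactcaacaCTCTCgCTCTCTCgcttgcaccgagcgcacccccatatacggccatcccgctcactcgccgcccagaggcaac
ph-d intergenic, chrX:2125686-2125786: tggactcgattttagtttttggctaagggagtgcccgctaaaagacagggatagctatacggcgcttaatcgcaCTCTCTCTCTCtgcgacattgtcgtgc

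The next 3 are such peaks without that element. The oc window, 18174 bp from the nearest start site, held no GAGAG, the window at unc-4 held a single copy, and that at fs(1)h held separate copies.
unc-4 promoter, chrX:17768274-17768374: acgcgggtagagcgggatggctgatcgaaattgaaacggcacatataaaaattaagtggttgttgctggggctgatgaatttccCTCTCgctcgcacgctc
oc intergenic, chrX:8624952-8625052: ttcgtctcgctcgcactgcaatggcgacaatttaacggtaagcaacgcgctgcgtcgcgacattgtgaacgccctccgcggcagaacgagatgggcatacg
fs(1)h promoter, chrX:8061034-8061134: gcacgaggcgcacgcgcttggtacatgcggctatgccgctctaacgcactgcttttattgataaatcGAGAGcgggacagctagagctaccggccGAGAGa

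The last pair are the windows at roX1 and roX2, shown because both genes lie on X and act in dosage compensation. The longest uninterrupted alternation of G and A in the window was 7 bases at roX1 and 9 bases at roX2.
roX1 exon, chrX:3861253-3861353: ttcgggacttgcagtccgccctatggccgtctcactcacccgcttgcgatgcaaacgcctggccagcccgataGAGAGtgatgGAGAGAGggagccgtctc
roX2 gene body, chrX:11580232-11580332: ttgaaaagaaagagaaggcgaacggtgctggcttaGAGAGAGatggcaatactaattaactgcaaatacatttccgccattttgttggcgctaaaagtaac

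Peaks were more frequent on X than its length would give. X held 19.96% of the peaks on X and the autosomal arms (Wilson 95% interval 18.6 to 21.4) and 17.6% of their bases (ratio 1.14, exact binomial test, p = 0.00066). Against the X share of protein-coding genes, 15.7%, the ratio was 1.27 (exact binomial test, p = 8.1e-10), and against the X share of distinct start sites, 17.01%, it was 1.17 (exact binomial test, p = 2.4e-05). The density was 25.6 peaks per megabase on X and 21.8 on the autosomal arms, where single arms ran from 11.3 on arm 4 to 23.2 on 2L. In the thresholded list of replicate 1 the densities were 18.5 on X and 14.2 on the autosomal arms, and in that of replicate 2 they were 19.1 and 15.2. X was thus denser than the autosomal arms as a whole in each list. Peaks are not replicates, and these tests describe the lists, not the spread between embryos.

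The share of X varied with the strength of the peaks. Within the conservative list X held 14.8% of the weakest quartile by signal (95% interval 12.4 to 17.5), 19.7% of the next, 24.4% of the next (21.4 to 27.6) and 21.0% of the strongest quartile. In the ranked list of both replicates, which also holds the peaks below the authors' threshold, X held 18.6% of the first 500 peaks by signal (15.4 to 22.2) and 22.7% of those ranked 501 to 1500 (20.2 to 25.4). At ranks 1501 to 3000 it held 19.4% (17.5 to 21.5), and 18.4% ± 1.93 (SD, n = 2) in the ranked lists of the replicates. Of the peaks ranked 3001 to 10000 it held 11.3% (10.6 to 12.1), and 11.6% ± 0.45 (SD, n = 2) in the ranked lists of the replicates. Of those ranked 10001 to 50000 it held 15.2% (14.9 to 15.6), and beyond rank 50000 it held 19.5% (19.3 to 19.8). In the list of both replicates X thus exceeded its share of bases, beyond the interval, at ranks 501 to 1500 and beyond 50000. It fell short of that share at ranks 3001 to 50000. These shares are descriptions, with no test.

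**Figure D1:**
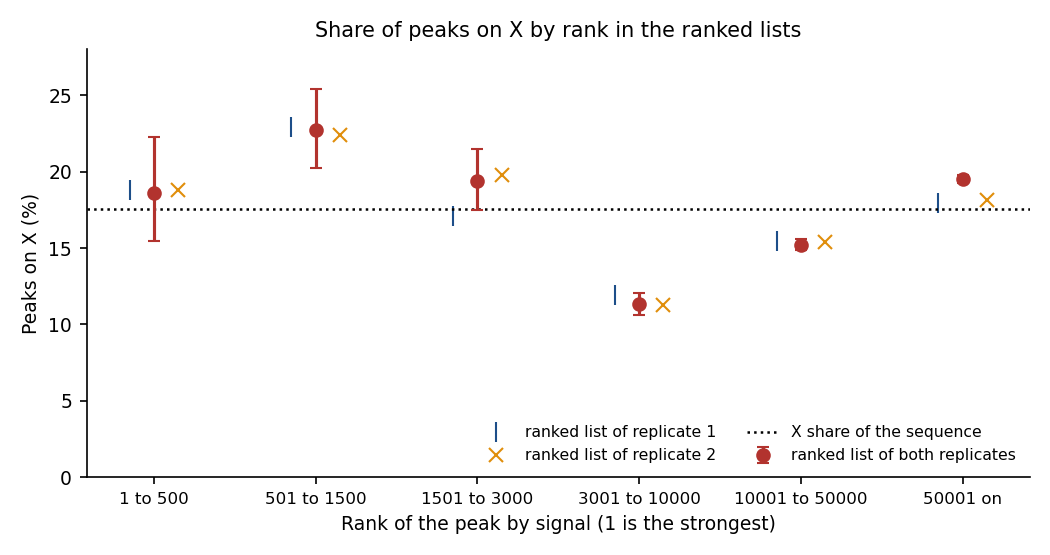
Percentage of peaks that lay on X (y axis) by rank of signal (x axis) in the ranked list of both replicates, with Wilson 95% intervals, and in the ranked list of each replicate. The dotted line is the 17.6% of bases on X, and the peaks ranked 3001 to 10000 stand lowest, at 11.3%.

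Along X the peaks were uneven. Neighbouring summits lay a median of 14104 bp apart, with quartiles of 3224 and 43170.5 bp. The number per megabase ran from 0 in the last, incomplete bin to 43 between X 8000001 and 9000000, a stretch with 99 protein-coding genes that includes oc and Lim1. That bin held 33 peaks in the list of replicate 1 and 30 in that of replicate 2. The megabase from 14000001 to 15000000 held 5 peaks beside 88 protein-coding genes, with 3 in replicate 1 and 8 in replicate 2. The longest stretch without a summit, 861604 bp, ran from 21594675 to 22456279. A share of 20.7% of X summits had another summit within 1 kb, against 21.5% on the autosomal arms (odds ratio 0.95, adjusted p = 0.78 by Fisher's exact test). With only peaks above the median signal kept, the odds ratio was 1.71 and passed (adjusted p = 0.022 by Fisher's exact test). A neighbour too then had to lie above that median, so the measure is not the same. X also held more of those peaks than its share of bases (ratio 1.29), and the part of this density was not tested. For a distance of 10 kb the shares were 65.3% on X and 61.7% on the autosomal arms (adjusted p = 0.14 by Fisher's exact test). This difference passed with only peaks above the median signal kept (odds ratio 1.63, adjusted p = 0.0015 by Fisher's exact test). It also passed in the list of replicate 1 alone (odds ratio 1.29, adjusted p = 0.046 by Fisher's exact test). In each case neighbours were counted among the kept peaks only. Some members shared sequence, since 48 of the 600 peaks overlapped another X peak, which left 576 separate regions. Of the 26 X peaks with a signal under 50, 21 had their summit within 250 bp of another in the list.

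Overlap with the peaks of the replicates was more frequent on X in the conservative list, but not under every setting. Of the X peaks, 309 (51.5%) overlapped a thresholded peak of both replicates, against 44.4% on the autosomal arms (adjusted p = 0.0041 by Fisher's exact test). A thresholded peak of neither replicate was overlapped by 118 X peaks (19.7%), against 27.1% on the autosomal arms (adjusted p = 0.00059 by Fisher's exact test). Of these 118, 115 overlapped a ranked peak of each replicate. The ranked lists hold 84620 and 94139 peaks on X and the autosomal arms, so overlap with them is easily met and is no measure of replication. When the overlap had to cover 0.5 of each peak, the odds ratio for both replicates was 1.17 and did not pass (adjusted p = 0.15 by Fisher's exact test). Among peaks above the median signal of the list it was 0.96 (adjusted p = 0.85 by Fisher's exact test). The median signal was 108 on X (quartiles 78.4 and 195) and 97.6 on the autosomal arms (70.4 and 188). Of the X peaks 56.8% lay above the median of the list, against 48.3% of the autosomal peaks (adjusted p = 0.00065 by Fisher's exact test). This difference was smaller and did not pass in the list of replicate 1 (52.1% on X and 49.4% on the autosomal arms, adjusted p = 0.45 by Fisher's exact test) or of replicate 2 (51.2% and 49.7%, adjusted p = 0.76). For the top 10% of the list the shares were 9.33% on X and 10.2% on the autosomal arms (adjusted p = 0.76 by Fisher's exact test). Across the 309 X peaks shared with both thresholded replicate lists, Spearman's rho between the replicates' signals was 0.80. Across the 1068 such autosomal peaks it was 0.85. Both are values over peaks of the same 2 libraries.

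Most of the strongest X peaks stood close to a transcription start site (TSS). Named here are peaks from the 25 strongest X peaks overlapped by thresholded peaks of both replicates, with the gene of the nearest TSS. Of the 25, 17 had a summit within 500 bp of a TSS, a position called promoter here, and 15 of these were upstream. A further 4 summits were in introns, 3 were intergenic and 1 was in a 3' UTR. Signals ran from 1093 to 3667, on a scale that the sources used here do not give, against the median of 108 for all X peaks. The strongest, 14 bp upstream of CG11151, had a signal of 3667, with 2126 in the list of replicate 1 and 1523 in that of replicate 2.

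Homeodomain genes, whose products pattern the head, eye and nervous system, were among them. The peak 286 bp upstream of oc, the head gap gene also called orthodenticle, had a signal of 3401 (1745 in replicate 1 and 1651 in replicate 2). A further peak, 18174 bp downstream of an oc start site, reached 2467 (1333 and 1138). The peak 245 bp upstream of unc-4, a regulator of neuron identity, had 2959 (1533 and 1409). Peaks upstream of Vsx1 (195 bp), a visual system homeobox gene, and of Lim1 (156 bp) had 2402 and 2239. B-H1, a Bar gene of eye and sensory organ development, had 1718 at 184 bp upstream, and CG32532, listed here with the homeodomain genes, had 1283 at 665 bp downstream. Both replicates called each of these peaks, which the choice of peaks required, and the signal in replicate 1 was the higher for each one.

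Other regulators followed. The zinc finger gene btd, another head gap gene, had a peak of 2580 at 176 bp upstream (1272 in replicate 1 and 1299 in replicate 2). The bromodomain gene fs(1)h had 2441 at 110 bp upstream (1467 and 1010). The Polycomb genes ph-p and ph-d, neighbouring duplicates that encode subunits of PRC1, had 2270 at 242 bp upstream and 2092 at 233 bp upstream, with a further ph-d peak of 1221 at 2450 bp upstream. Reads of such duplicates can be hard to place, and how the authors treated them is not given in the sources used here. The T-box gene bi, an organiser of wing and optic lobe patterning, had 1413 at 137 bp upstream and 1314 at 1236 bp upstream. The summits of fs(1)h, of ph-p and of the bi peak of 1413 lay within those genes, upstream of an internal start site. The homeodomain and Polycomb peaks were all promoter or upstream peaks, with the exception of the downstream peaks at oc and CG32532 and that of 1192 in the 3' UTR of Lim1.

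The remaining named peaks belonged to genes of other kinds. Gbeta13F, a G protein beta subunit gene, had 2667 at 28 bp upstream of an internal start site, with the summit within the gene. Rilpl had 2465 at 6773 bp downstream, in intergenic sequence. An intron peak of nocte, a gene of circadian temperature entrainment, had 2167, and an intron peak of the phosphatase gene Pp2C1 had 1842, with another of 1201 at its promoter. IntS6, a subunit gene of the Integrator complex, had 1093. The peaks at wcy (1629) and CG32772 (1400) were upstream promoter peaks. Of the 25, replicate 2 gave the higher signal at btd and IntS6 only.

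**Figure D2:**
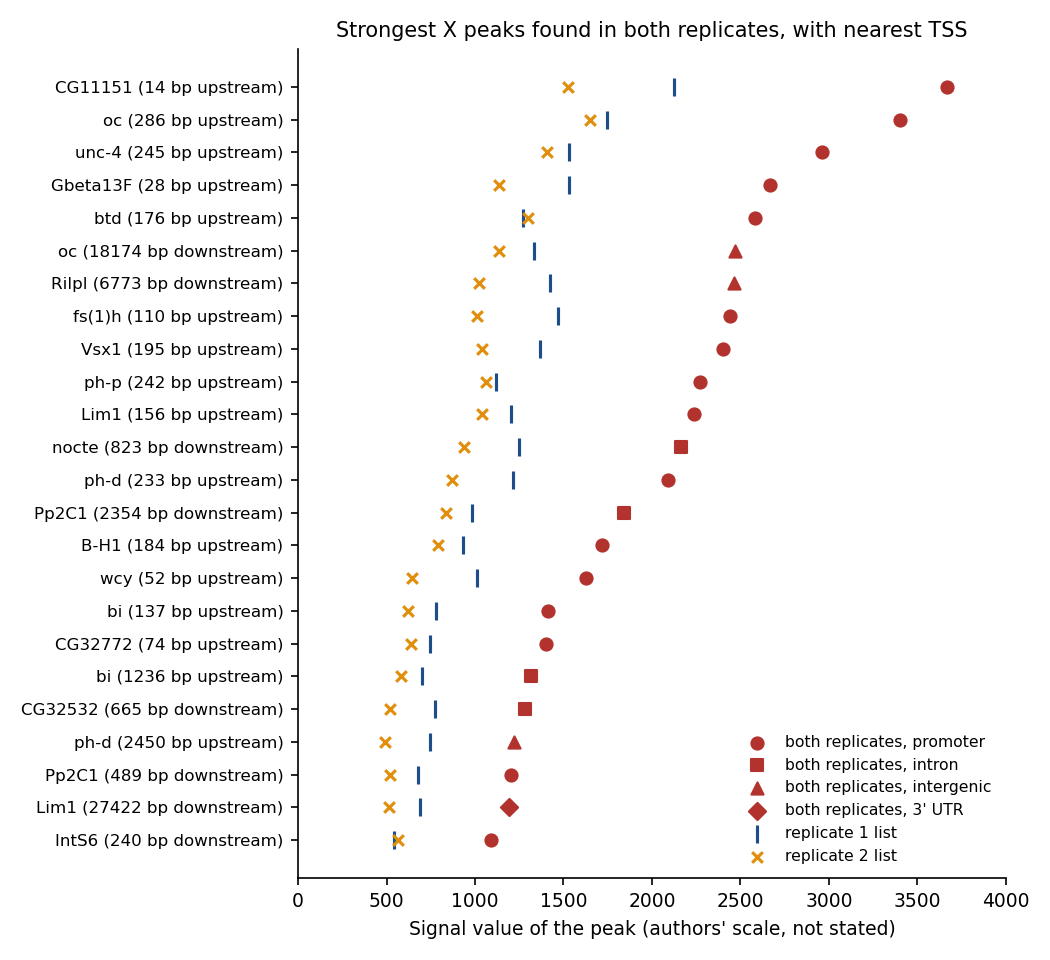
Signal value (x axis, the authors' scale) of 24 of the 25 strongest X peaks shared by both replicates (rows, by nearest gene, with the distance and side of the summit from its TSS). Filled symbols are the conservative list, by genomic class, and bars and crosses are the lists of replicate 1 and replicate 2, in which the choice of peaks required each to be present.

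At roX1 and roX2 the peaks lay within the gene bodies. A peak in exonic sequence of roX1 (X 3857230 to 3862697, minus strand) had its summit 758 bp downstream of the TSS, with a signal of 1053, rank 27 on X, 626 in replicate 1 and 430 in replicate 2. A weaker peak in roX2 (X 11579065 to 11580432, plus strand) had its summit 1217 bp downstream of the TSS, with a signal of 185, and 108 in replicate 1 and 73.9 in replicate 2. That summit also lay 490 bp from a start site of nod, a kinesin-like gene, and so counts as a promoter summit. For mof, the acetyltransferase gene of the MSL complex, the nearest summit was 19329 bp away. On 2L, msl-2, the male-specific subunit gene, had its nearest summit 10511 bp away. Sxl, the X-linked switch gene of sex determination, had none within 2 kb in the conservative list, while the list of replicate 2 had a peak of 46.5 at 1344 bp downstream. The gene CG10321 itself lies on 2R and had summits at 9 bp upstream (1100) and 504 bp downstream (1164) of its TSS. Signal from transgene copies and from the native locus cannot be told apart there.

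Genes with a summit at most 500 bp from any TSS are called bound. On X 220 of 2196 protein-coding genes were bound, 10% (95% interval 8.83 to 11.3), against 11.1% on the autosomal arms (adjusted p = 0.27 by Fisher's exact test). In the replicate lists the shares were 7.67% ± 0.16 on X and 8.12% ± 0.25 on the autosomal arms (SD, n = 2). Noncoding genes were bound at 5.67% on X, 35 of 617, against 4.86% on the autosomal arms (adjusted p = 0.37 by Fisher's exact test). Among peaks above the median signal of the list, noncoding genes were bound more often on X (odds ratio 1.97, adjusted p = 0.0058 by Fisher's exact test). With a TSS distance of 200 bp protein-coding genes were bound less often on X (odds ratio 0.81, adjusted p = 0.038 by Fisher's exact test), and the odds ratio was 1.04 when each summit was given to its nearest gene alone.

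Bound X genes are described by function, against the 10% of X protein-coding genes bound and their median signal of 118. The lists share members and were chosen with earlier results of these data known. No test was made of them, and their shares are descriptions only. Of 12 homeodomain genes 8 were bound, oc, unc-4, Vsx1, Lim1 and B-H1 among them, with the lowest signal at B-H2 (514). The homeodomain genes ct, OdsH, acj6 and CG32532 were not, though peaks of 1083 at OdsH and 1283 at CG32532 had summits 1400 and 665 bp from their start sites. Of 8 segmentation and head genes 6 were bound, oc, btd, Sp1 (803), disco (700), disco-r (636) and the pair-rule gene run (291). The gap gene gt had a peak near its TSS in the list of replicate 1 only (41.2). Of 18 other transcription factor genes 6 were bound, with bi, org-1 (150) and ewg (126) beside Sp1, btd and run. The achaete-scute complex genes ac, sc, l(1)sc and ase were not bound, while vnd (585), a determinant of ventral neuroblasts listed with them, was. Among 9 genes for Polycomb, trithorax and chromatin proteins 5 were bound, ph-p, ph-d, fs(1)h, the CBP acetyltransferase gene nej (713) and the cohesin release gene wapl (382.5).

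The remaining lists are of genes with other functions. Among 8 elements of the X sex signal and sex determination, run and upd1 (138), a JAK/STAT ligand gene, were bound. Of 15 signalling genes the kinase gene sgg (165) and upd1 were bound. Of 11 genes of neural function 5 were bound, with 243 at elav, an RNA-binding protein gene of neurons, 191 at dnc, 131 at sdt, 89.1 at Sh and 80.4 at fne. The muscle genes wupA (143) and up (109), which encode troponins, and if (63.5), an integrin gene, were bound, 3 of 5. Of 7 germ line genes egh (121) was bound. Of 14 ribosomal protein genes on X 9 were bound, a larger share than among all X genes but with signals of only 66.9 to 154. Their strongest was RpS28b, followed by RpL22 (137), RpL17 (131), RpS15Aa (113), RpS19a (89.0) and RpS14b (82.6). The replicates differed here, since 8 of the 14 were bound in the list of replicate 1 and 2 in that of replicate 2, RpS28b and RpL22.

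Some X genes held many peaks. Within 2 kb of the 69.8 kb gene Tlk, a kinase gene, were 9 summits, 8 of them in introns, with signals of 91.6 to 651. The list of replicate 1 had 7 there and that of replicate 2 had 9. The adhesion gene kirre (394 kb), CG14434 (15.3 kb) and the noncoding RNA genes CR44357 (239 kb) and CR32773 (224 kb) had 8 each. The lists of replicate 1 and replicate 2 had 7 and 7 at kirre, 8 and 7 at CR44357 and 5 and 5 at CR32773. They had 6 and 3 at CG14434, where 2 of the 8 overlapped thresholded peaks of both replicates and the lowest signal was 3.21. These counts were not corrected for length. At kirre the count was no higher than the X density of 25.6 peaks per megabase would give for its span. The span of CR32773 holds bi, so that its strongest peak, 1413, is the bi promoter peak. Signals at kirre ran from 65.9 to 196 with a median of 134, and at CR44357 from 101 to 231 with a median of 166, against the X median of 108.

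Summits on X were found less often at promoters and more often in introns and 3' UTRs than on autosomal arms. Promoters held 239 of the 600 X summits, 39.8% (95% interval 35.99 to 43.8), against 49.0% on the autosomal arms (odds ratio 0.69, adjusted p = 0.00026 by Fisher's exact test). In the replicate lists promoters held 42.1% ± 1.65 on X and 52.1% ± 0.79 on the autosomal arms (SD, n = 2). Introns held 258 X summits, 43.0% (39.1 to 47.0), against 32.2% (odds ratio 1.59, adjusted p = 8.1e-06 by Fisher's exact test), and 40.1% ± 1.60 and 30.4% ± 2.11 in the replicate lists. The 3' UTRs held 21 X summits, 3.5% (2.30 to 5.29), against 0.79% (odds ratio 4.54, adjusted p = 2.5e-05 by Fisher's exact test), and 4.30% ± 0.10 and 0.91% ± 0.53 in the replicate lists. These 3 differences passed in the list of each replicate and were larger than the spread between the replicates. Intergenic sequence held 10.3% on X and 14.3% on the autosomal arms (adjusted p = 0.015 by Fisher's exact test), a difference that did not pass in the list of replicate 2 (adjusted p = 0.15 by Fisher's exact test). Coding sequence held 1 X summit, 0.17%, against 1.58% (adjusted p = 0.0067 by Fisher's exact test), and this difference passed in neither replicate's list. For 5' UTRs (1.83% on X and 0.96% on the autosomal arms) and other exons (1.33% and 1.16%) the adjusted p of Fisher's exact test was 0.12 and 0.78. Near a TSS 71.4% of X summits lay upstream, against 72.0% on the autosomal arms (adjusted p = 0.87 by Fisher's exact test).

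X and the autosomal arms also differ in how much of their sequence belongs to each class, and the classes of summits were set against every 101 bp tile of the arms, a comparison added after these differences had been seen. Promoters made up 12.6% of X tiles and 13.8% of autosomal tiles. Introns made up 43.5% of X tiles and 38.7% of autosomal tiles, and 3' UTRs 6.58% and 4.74%. Relative to the tiles the X odds for promoters were 0.76 times the autosomal odds (Zelen's exact test of equal odds ratios, adjusted p = 0.0077). For introns the ratio was 1.30 (Zelen's exact test, adjusted p = 0.0091) and for 3' UTRs 3.21 (Zelen's exact test, adjusted p = 0.0025). For intergenic sequence it was 0.94 (Zelen's exact test, adjusted p = 0.72). X intron summits thus occurred at about the intron share of X sequence, and X 3' UTR summits below the 3' UTR share, though less far below it than on the autosomal arms.

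**Figure D3:**
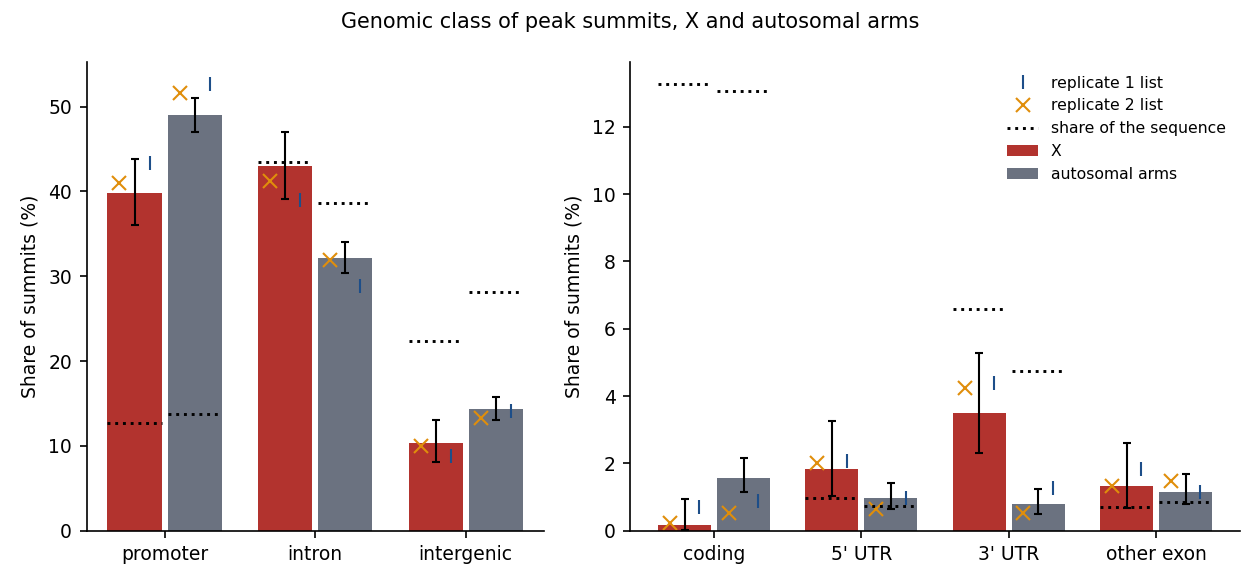
Share of summits in each genomic class (y axis, percent) for X and for the autosomal arms, with Wilson 95% intervals, the values of each replicate's own list and, as dotted lines, the share of 101 bp tiles of the sequence in the class. X bars stand lower at promoters (39.8% against 49.0%) and higher in introns (43.0% against 32.2%) and 3' UTRs (3.5% against 0.79%), and the panels differ in scale.

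The X intron summits lay a median of 2344.5 bp from a TSS, against 2665 bp on the autosomal arms, and 8.91% of them lay beyond 10 kb, against 13.7%. Their median signal was 99.3 on X and 92.3 on the autosomal arms, below the 124 and 104 of promoter summits. The 21 peaks in X 3' UTRs ran from 57.9 to 1192 in signal with a median of 117, and 14 of them overlapped thresholded peaks of both replicates. The strongest, all seen in both replicates, were in Lim1 (1192, with 689 in replicate 1 and 512 in replicate 2), the innexin gene Inx2 (325, with 165 and 157), the calcineurin gene CanA-14F (293, with 170 and 122) and CG2186 (278, with 177 and 104). Others lay in nej (189), Act5C (138), a cytoplasmic actin gene, and fs(1)h (117). These genes were chosen after their values had been seen. The single summit in coding sequence, in bif, had a signal of 281.

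GA repeats were more frequent at X summits. The GAGA element GAGAGAG, searched on both strands within 50 bp of the summit, was present at 108 of 600 X summits, 18% (95% interval 15.1 to 21.3), against 9.98% on the autosomal arms (8.84 to 11.2, odds ratio 1.98, adjusted p = 3.0e-06 by Fisher's exact test). In the list of replicate 1 the shares were 23.3% on X and 13.1% on the autosomal arms (adjusted p = 1.1e-05 by Fisher's exact test), and in that of replicate 2 they were 15.8% and 9.29% (adjusted p = 0.0014 by Fisher's exact test). The replicate lists thus averaged 19.5% ± 5.27 on X and 11.2% ± 2.67 on the autosomal arms (SD, n = 2), and the difference pointed the same way in each. The longer repeat GAGAGAGA, which overlaps the GAGA element, was present at 13.3% of X summits and 6.61% of autosomal ones (odds ratio 2.18, adjusted p = 3.0e-06 by Fisher's exact test). An uninterrupted alternation of G and A over 8 bases or more stood at 14.8% of X summits and 7.40% of autosomal summits (adjusted p = 1.5e-06 by Fisher's exact test), and one of 20 bases or more at 12 X summits (2.00%) and 12 autosomal summits (0.50%). The longest at an X summit, 48 bases, was in an intron peak nearest to the noncoding RNA gene CR32658, with a signal of 115. Where the element was present, its centre lay a median of 18 bp from the summit on X and on the autosomal arms alike.

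The summits were also set against the sequence around them and against the whole of each chromosome. In windows centred 500 bp to each side the element was present at 3.17% on X and 2.29% on the autosomal arms (adjusted p = 0.24 by Fisher's exact test). The odds at X summits were 6.65 times those of their own flanks, and at autosomal summits 4.72 times. The ratio of these odds ratios, 1.41, did not pass (Zelen's exact test, adjusted p = 0.53). Of all 101 bp tiles 1.51% on X and 1.18% on the autosomal arms held the element. Set against these, in a comparison added after the data had been seen, the enrichment on X was 1.55 times that on the autosomal arms (Zelen's exact test, adjusted p = 0.0080). With flanks at 1000 bp the first ratio was 1.07, and among peaks above the median signal it was 1.02 (adjusted p = 1 by Zelen's exact test for each). For the GA repeat the ratio against tiles was 1.44 and did not pass (Zelen's exact test, adjusted p = 0.078). Whether the enrichment differed between X and the autosomal arms thus depended on the background and the word.

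**Figure D4:**
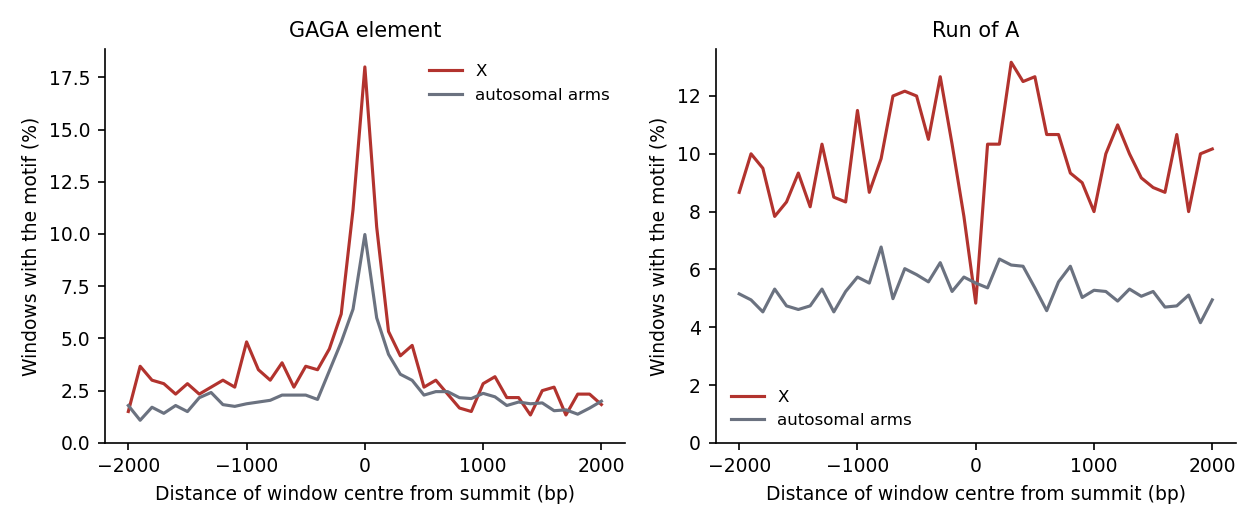
Share of 101 bp windows with the GAGA element (left) and with a run of 8 A bases on either strand (right) by distance of the window centre from the summit, for the 600 X peaks and the 2406 autosomal peaks. The GAGA element peaks at the summit, at 18% on X and 9.98% on the autosomal arms, while the A run on X has its lowest value there, 4.83%.

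The GAGA element was more frequent on X in each genomic class with enough summits to compare, though not every class passed. At promoter summits it was present at 14.2% on X and 8.74% on the autosomal arms (p = 0.040 by Fisher's exact test, adjusted over the 7 classes, and 0.15 when adjusted over the 20 motifs, which did not pass). At intron summits the shares were 19.0% and 10.7% (adjusted p = 0.0080 by Fisher's exact test). At intergenic summits they were 17.7% and 11.6% (adjusted p = 0.37 by Fisher's exact test), and at 3' UTR summits 9 of 21 and 4 of 19 (adjusted p = 0.37 by Fisher's exact test). By signal the odds ratio was highest in the weakest quartile of the list, 3.59, with 16.2% on X against 5.15% on the autosomal arms (adjusted p = 0.00024 by Fisher's exact test). In the strongest quartile the shares were 19.6% and 17% (odds ratio 1.2, adjusted p = 0.48 by Fisher's exact test). Over the quartile groups the X shares ran from 14.9% to 20.2%, and the autosomal shares from 5.15% to 17%. Whether the quartile groups differ in their odds ratios was not tested, and the splits were added after the data had been seen.

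**Figure D5:**
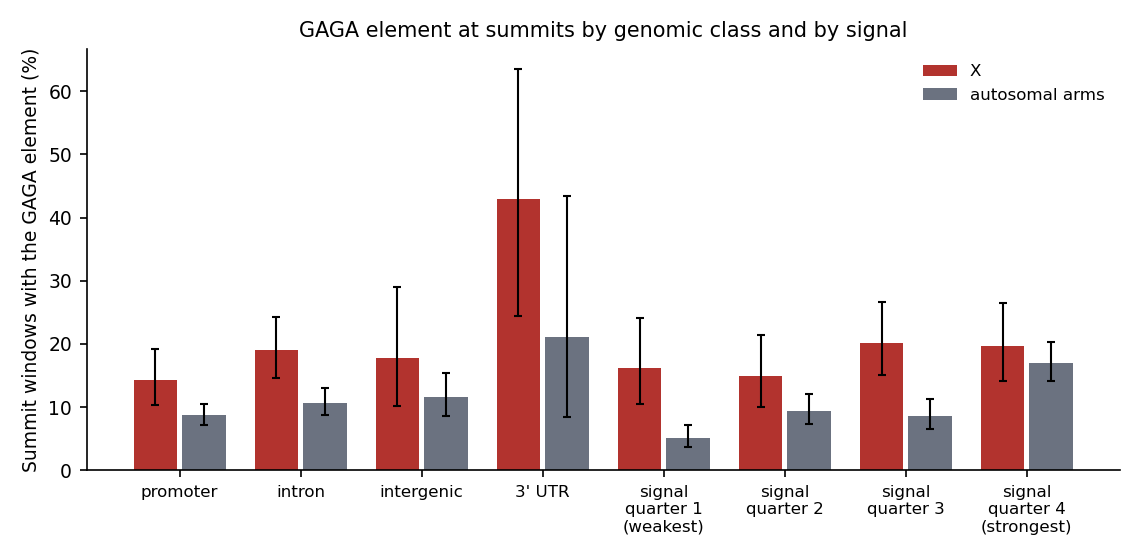
Share of summit windows that hold the GAGA element (y axis, percent, Wilson 95% intervals) on X and on the autosomal arms, by genomic class for classes with 20 or more X summits and by quartile of signal. X stands above the autosomal arms in each group shown, and among the quartiles the gap is wide in the first and the third (16.2% against 5.15% and 20.2% against 8.63%) and narrow in the strongest (19.6% against 17%).

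Runs of A differed between X and the autosomal arms beside the summits. The run AAAAAAAA, counted on both strands, was present at 4.83% of X summits and 5.53% of autosomal summits (adjusted p = 0.78 by Fisher's exact test). In the flanking windows it was present at 12.3% on X and 5.59% on the autosomal arms (adjusted p = 3.2e-13 by Fisher's exact test). X summits thus held the run less often than their flanks (odds ratio 0.37, adjusted p = 9.7e-07 by Fisher's exact test), while for autosomal summits the odds ratio was 0.99. The ratio of the 2 was 0.37 (Zelen's exact test, adjusted p = 0.00021). It was 0.27 in the list of replicate 2 (Zelen's exact test, adjusted p = 1.3e-05) and 0.40 in that of replicate 1, where it did not pass (Zelen's exact test, adjusted p = 0.075). With windows of 100 bp to each side it was 0.57 (Zelen's exact test, adjusted p = 0.010). The run also filled more of X in general, at 8.34% of X tiles and 4.83% of autosomal tiles. The GC content was 44.8% in X summit windows and 40.1% in their flanks, against 42.8% and 41.7% on the autosomal arms, and the part of this composition in the A run result was not tested.

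For the other 18 motifs the difference between X and autosomal summits did not pass, with a lowest adjusted p of 0.66 by Fisher's exact test. The CA repeat CACACACA was at 4.83% of X summits and 3.66% of autosomal ones, and it was more frequent in X flanks (4.83% against 3.03%, adjusted p = 0.031 by Fisher's exact test). With windows of 100 bp to each side of the summit its difference passed (odds ratio 1.66, adjusted p = 0.0031 by Fisher's exact test). The TA repeat ATATATAT was at 1.17% of X summits and 1.95% of autosomal summits. The site GCCATT, bound by the Polycomb recruiter Pho, was at 5% and 6.65%, and the T-box word GGTGTGA at 0.67% and 1.58%. The core promoter word GGTCACAC was at 0.33% and 0.91%, the TATA box TATAAA at 11.7% and 13.3%, the DRE TATCGATA at 0.50% and 1.00%, and the Sox site ACAAAG at 5.17% and 6.44%. A match shows only that the letters are present in the window.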

How the data were processed

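ChIP-seq peaks of 2 replicates of 1 group were analysed in dm6, without a control library. The authors deposited ranked and thresholded peak lists with a score, a signal value on an unstated scale, and a summit offset, which was added to each start. Peak caller and aligner: not given in the sources used here. Read depth is unknown, and 16 value columns of the series' ranked lists were not used. Summits were assigned to Ensembl release 115 genes in the order promoter (within 500 bp of a TSS), then exon, intron and intergenic classes, and motifs were searched in RefSeq sequence with Python 3.11.15, NumPy 2.4.6, SciPy 1.17.1 and Matplotlib 3.10.9. X was compared with 5 autosomal arms by two-sided Fisher's, Zelen's and binomial exact tests, Benjamini-Hochberg adjusted within 18 properties, 20 motifs and 2 kinds of gene, at 0.05. Odds ratios have 0.5 added to each count. Intervals cover counting error only. Statistical code was tested on simulated data. Named peaks were the 25 of highest signal called in both replicates, the bound members of each list (at most 6), 6 fixed genes, the 5 genes with most summits and the 10 motifs of smallest p. One item the rule names is not reported here. Members and lists were chosen with earlier results of these data known. Alternatives were other distances, windows, lists and arms. Comparisons with tiles, splits of the GAGA element and merging of overlapping peaks were chosen after seeing the data.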

Additional observations from a re-analysis of the deposited data

Results flagged for a closer look

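Of the peaks in the ranked list of both replicates that reached the lowest score of the conservative list, 830, 5 on X and 119 on the autosomal arms were absent from that list. This is a signal outside the peaks compared in the report, and no control samples were analysed. The X peaks had signals of 155 and 106 at 217 and 536 bp from CG44774 start sites, and 71.7 at 727 bp from a start site of Tlk. The others, of 95.6 and 67.3, lay 68055 and 70534 bp from the nearest start sites, those of the noncoding RNA gene CR40469 and of CG14621. With all 124 absent peaks added back, the X share of peaks was 1.10 times its share of bases (exact binomial test, p = 0.010), against 1.14 without them. The run of 8 A bases differed between X and the autosomal arms in its contrast of summit and flank, with a ratio of odds ratios of 0.37 (Zelen's exact test, adjusted p = 0.00021). The part of base composition in this was not tested.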

How the results depend on the processing

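Of 356 recomputed values, 297 were counted as unchanged. For tested values this means that they kept their direction and their side of the threshold. Counts of properties and motifs that passed and the median spacing have neither, and were counted where they stayed near the main value. The X share of peaks (ratio 1.10 to 1.29), promoter summits (odds ratio 0.61 to 0.76), intron summits (1.30 to 1.71), 3' UTR summits (3.21 to 7.96) and GA runs (1.90 to 2.27) kept theirs under all alternatives run for them. The GAGA element did not pass near a TSS (1.75, adjusted over the motifs), in intergenic sequence (1.68), in 3' UTRs (2.62), or in the second (1.69) and the strongest (1.2) quartile of signal, where fewer summits were compared. Bound protein-coding genes had odds ratios of 1.01 in the upper range of signal and 1.04 with the nearest gene alone, and 0.81 with a TSS distance of 200 bp, which passed. Bound noncoding genes had 0.91 with 1000 bp and 1.97 in the upper range of signal, which passed. In the upper range of signal the odds ratio turned for coding summits (1.13), overlap with replicate 2 (0.61), with both (0.96) and with neither (2.05). It also turned there for neighbours within 1 kb, which had to lie in the upper range too (1.71, which passed), and with overlapping peaks of the whole list merged it was 1.11. For signal above the median it was 0.83 in the upper range, where the threshold was the median of that range itself and not of the list. Other exons had 0.86 in the other thresholded list and 0.91 with 200 bp, upstream summits 1.04 in the other list and 1.05 without 3R, and the top 10% by signal 1.00 without 3R. With an overlap of 0.5 of each peak the odds ratio was 1.13 for replicate 2 and 1.17 for both, and neither passed. The CA repeat had 0.84 against tiles and 1.66 with windows of 100 bp to each side, which passed. The A run at summits had 1.04 and 1.26 with windows of 25 and 100 bp to each side. With one replicate's list in place of both, odds ratios ran from 0.95 to 1.66 for other exons, 0.82 to 1.06 for upstream summits, 0.89 to 1.31 for wide peaks and 0.91 to 1.17 for neighbours within 1 kb. The A run ratio of summit and flank was 0.47 with flanks at 1000 bp and 0.57 with windows of 100 bp to each side. In the single replicates' lists it ran from 0.27 to 0.40, the ratio of median signals ran from 1.03 to 1.04, and the median spacing from 20013 to 22036 bp. The signal ratio was 1.14 in the other list and 1.12 after merging. Of the 18 properties 11 passed, against 6 in the upper range of signal. In the single replicates' lists 4 passed without replicate 1 and 6 without replicate 2. The properties of overlap with replicate peaks, all of which passed in the conservative list, were not run there. Those 2 counts are thus of fewer properties. Of the 20 motifs 2 passed, against 4 with windows of 100 bp to each side and 0 near a TSS, where every motif was tested on fewer summits. Beyond these differences in what was run, the cause of the changes was not tested. No paired analysis was possible because there is 1 group. Read depth is unknown, so weak peaks cannot be set against it.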

Other observations

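Peaks in 5' UTRs on X numbered 11. The strongest were in HisRS, a histidyl-tRNA synthetase gene (501.2, with 295 in replicate 1 and 202 in replicate 2), mnb, a kinase gene (458, with 279 and 187), and Hers (241, with 144 and 87.6). Several regulators had many summits within 2 kb of their span without being bound at a TSS. The MAP kinase pathway gene Raf had 7, with signals of 96.9 to 252, and the nuclear receptor gene Hr4 had 6, with signals of 14.9 to 272, all 6 overlapped by thresholded peaks of both replicates. These genes were chosen after their values had been seen.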
